A study of Mus musculus with 2 samples.

Results

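A group of 8 imprinted genes was examined in primordial germ cells (PGCs), the cells of the mouse embryo from which oocytes and sperm descend, at embryonic day 9.5 (E9.5). The group was set by name and comprised the genes of the Mest, Peg3, Sgce, Impact, Mcts2 and Zdbf2 imprinted loci, together with Zim1, a neighbour of Peg3. Of 9 symbols, 8 had a row among the 18877 genes of the deposited expression table, and Peg10 was not analysed here. The samples were 2 replicates of 1 group, numbered 1 and 2 by their titles and described in the study as biological replicates; the labels do not say which embryos each came from. The cells came from untreated C57BL6 embryos and had been isolated with an antibody to SSEA1, a carbohydrate antigen on the PGC surface. Per the methods, this was flow sorting that also used an antibody to the integrin CD61, or magnetic sorting by SSEA1. The methods describe the embryos as female, although the Y-linked gene Ddx3y was at 7.32 TPM in replicate 1 and 5.35 TPM in replicate 2. TPM is a relative transcript abundance corrected for gene length, with the same sum in each library.

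Imprinted genes are transcribed mainly from the allele of 1 parent. At each of these loci a control region acquires DNA methylation in the oocyte, so that the maternal copy of the adjacent promoter is silent and the paternal copy is used. Zim1 is the exception in the group and is expressed from the maternal copy. PGCs are the cells in which such parental marks are removed before new ones are set in the gametes. The parental origin of a transcript was not measured in the table, and each value below is the sum over both alleles.

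The deposited TPM values could be converted back to whole reads by multiplying each by the exon length of its gene, which gave 15912469 reads in replicate 1 and 5458687 in replicate 2. Intervals in brackets are exact 95% Poisson intervals of those reads and cover counting error only. All 12 PGC markers were at 1 TPM or above in both libraries, with a summed level of 7253 and 7378 TPM. Most of these sums came from Dppa3, at 5013 and 5075 TPM, and Ifitm3, at 1518 and 1572 TPM. The median of the 12 mean levels was 26.5 TPM, and the lowest marker was Pou5f1, at 1.54 and 1.46 TPM. Markers of red blood cells were also abundant, with 5 of 7 markers in the table at a summed 3537 and 3331 TPM. For the other cell types the summed levels were 2.37 and 3.95 TPM for mesenchyme (4 of 7 markers in the table), 12.9 and 11.0 TPM for endothelium (5 of 6), 3.91 and 3.99 TPM for coelomic epithelium and gonad (5 of 5), and 6.41 and 7.05 TPM for neural cells (3 of 4). Pecam1 made up 8.23 and 9.99 TPM of the endothelial sums, and Emcn made up 2.12 and 0 TPM. The gut endoderm list (4 of 6) summed to 164 and 142 TPM, of which Epcam, an adhesion gene that PGCs also express, made up 160 and 138 TPM. Of its other genes, the keratin gene Krt8 was at 4.08 and 3.82 TPM, Foxa2 at 0 and 0.505 TPM (4 reads), and Foxa1 was listed at 0 in both libraries. In these bulk samples, fewer cells of a type and less RNA per cell cannot be told apart.

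The group separated into 4 genes at clearly detectable levels and 4 genes near or below 1 TPM. Mcts2, Impact, Peg3 and Mest lay between 17.1 and 51.7 TPM in both libraries. Usp29, Zdbf2, Zim1 and Sgce lay between 0.310 and 1.42 TPM. The upper 4 genes held 98.2% of the group's TPM in replicate 1 and 97.1% in replicate 2. In both libraries 5 of 8 genes stood at 1 TPM or above, a share close to the 60.0% found for all genes in the table. As log2(TPM + 1), the median of the group was 2.67 in replicate 1, 2.73 in replicate 2 and 2.70 ± 0.0400 on average (SD, n = 2), compared with 1.89 and 1.85 for all genes. This median falls in the gap between the upper and the lower genes and describes neither. No test between groups was possible with 1 group of 2 libraries.

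**Figure D1:**
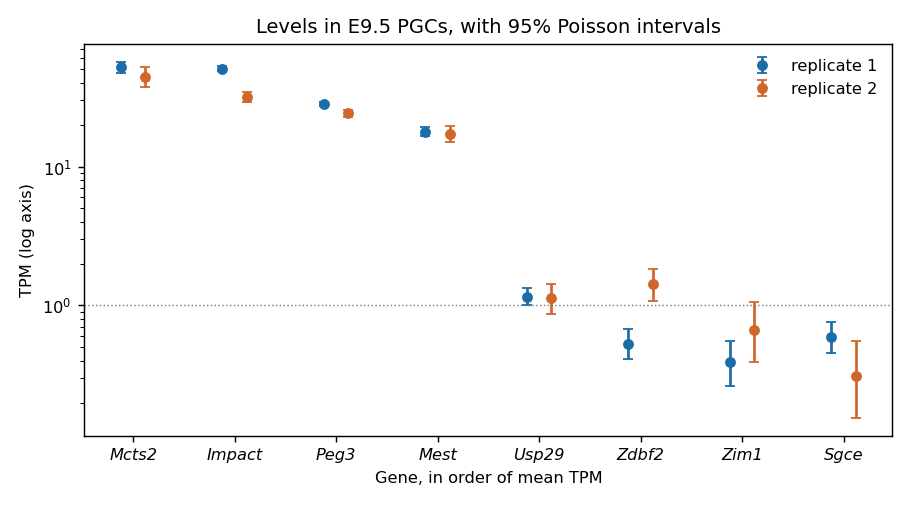
TPM of the 8 genes on a log axis, with 1 point per replicate and bars for the exact 95% Poisson interval of the recovered reads; the dotted line marks 1 TPM. Mcts2, Impact, Peg3 and Mest lie at 17.1 TPM or more in both replicates, and the other 4 genes at 1.42 TPM or less.

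The order of the mean levels was Mcts2, Impact, Peg3, Mest, Usp29, Zdbf2, Zim1 and Sgce. This order depended at both ends on the gene length used. With the longest transcript of each gene in place of its summed exons, Impact (56.3 TPM) stood above Mcts2 (48.3 TPM), and Sgce (1.09 TPM) stood above Zdbf2 (0.977 TPM) and Zim1 (0.555 TPM). Longest-transcript levels were not rescaled to a common sum, so only their order and ratios can be compared. Among the 7 pairs of neighbours in the order by summed exons, 4 had overlapping replicate values. Mcts2 and Impact overlapped, and so did Usp29 and Zdbf2, Zdbf2 and Zim1, and Zim1 and Sgce. Impact and Peg3, Peg3 and Mest, and Mest and Usp29 did not overlap, with ratios of the means of 1.58, 1.49 and 15.3. The step between Mest and Usp29 was thus the widest gap in the order. By mean TPM, 89.5% of all genes in the table were lower than Mcts2, 88.3% were lower than Impact, 84.5% than Peg3 and 80.3% than Mest. For the lower genes the shares were 34.2% for Usp29, 31.2% for Zdbf2, 21.2% for Zim1 and 19.4% for Sgce.

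The Peg3 domain on chromosome 7 holds the paternally expressed Peg3 and Usp29, which are transcribed away from each other, and the maternally expressed Zim1. Peg3 (chromosome 7, 6703892 to 6730431, minus strand, GRCm38) encodes a large zinc finger DNA-binding protein. It was at 28.1 TPM in replicate 1 (27.2 to 29.0 TPM, 3559 reads) and 24.1 TPM in replicate 2 (22.7 to 25.6 TPM, 1073 reads), which made it the member with the most reads in both libraries. Usp29 (chromosome 7, 6730578 to 6967219, plus strand) encodes a deubiquitinating enzyme. Its level was 1.16 TPM in replicate 1 (1.0 to 1.33 TPM, 199 reads) and 1.13 TPM in replicate 2 (0.874 to 1.43 TPM, 68 reads), and its ratio between the libraries was the closest to 1 in the group. Peg3 therefore exceeded Usp29 by 24.3-fold in replicate 1 (95% interval of the read ratio 21.0 to 28.1) and by 21.4-fold in replicate 2 (16.7 to 27.8). On the log2(TPM + 1) scale the difference was 3.66 ± 0.136 (SD, n = 2).

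The annotated starts of Peg3 and Usp29 lie close together, and transcription from each start was not measured. The RefSeq starts of Peg3 (6730419) and Usp29 (6730583) lie 164 bases apart, and the 163 bases between them are upstream of both of these starts. They are given on the plus strand (GRCm38.p6, RefSeq, chr7:6730420-6730582), reading away from Peg3 towards Usp29, with each CpG, the dinucleotide that carries DNA methylation, in capitals.
Peg3-Usp29: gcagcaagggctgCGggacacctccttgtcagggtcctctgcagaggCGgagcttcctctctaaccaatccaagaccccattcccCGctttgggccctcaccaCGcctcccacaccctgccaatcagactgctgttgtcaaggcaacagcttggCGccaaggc
The stretch holds 5 CpGs and is 62.0% G and C. With the longest transcript of each gene as its length, the ratio of Peg3 to Usp29 was lower, at 15.5 in replicate 1 and 13.7 in replicate 2.

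The maternally expressed neighbour Zim1 (chromosome 7, 6671269 to 6696450, minus strand), another zinc finger gene, was near the lower end of the group. It had 30 reads and 0.390 TPM in replicate 1 (0.263 to 0.557 TPM) and 18 reads and 0.666 TPM in replicate 2 (0.395 to 1.05 TPM). Peg3 exceeded it by 72.0-fold in replicate 1 (50.3 to 107) and by 36.2-fold in replicate 2 (22.8 to 61.3), or by 4.15 ± 0.336 on the log2(TPM + 1) scale (SD, n = 2). Both ratios were far above 1, and their intervals overlapped, which the few Zim1 reads make wide. Further along the chromosome, Zim3 was at 2.21 and 0.637 TPM, the zinc finger gene Zfp264 at 2.82 and 1.06 TPM, and the chloride transporter gene Clcn4 at 1.36 and 1.22 TPM. Peg3 was thus the only gene of the 6 examined in this region above 3 TPM. Zim3 is annotated as an antisense transcript that covers 2582 exonic bases of Usp29, 14.3% of its exons. Of the 50-base stretches of the longest Usp29 transcript, 33.8% also occurred in Zim3 or Gm27675, on either strand. Smart-seq2, the cDNA protocol named in the methods, does not mark strand, so reads in the shared bases cannot be assigned to Usp29 or Zim3.

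**Figure D2:**
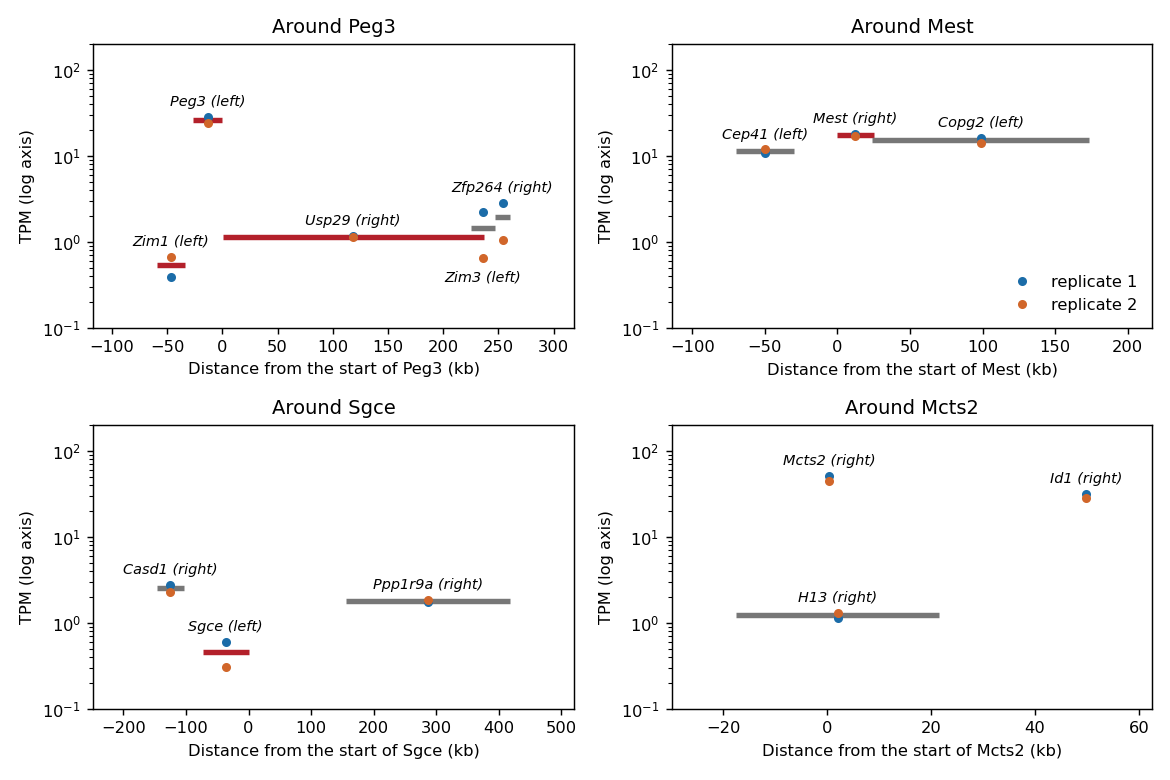
Gene bodies around Peg3, Mest, Sgce and Mcts2 drawn as bars along the distance from the start of the named gene (kb), at the height of the mean TPM on a log axis, with 1 point per replicate (replicate 1 in blue, replicate 2 in orange) and the direction of transcription beside each name; red bars are the genes of the group. The bars of Mcts2 and Id1 are hidden by their points. Peg3 and Mcts2 stand above the other genes drawn with them, Mest lies level with Copg2, and Sgce lies below Casd1 and Ppp1r9a.

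Mest (chromosome 6, 30723547 to 30748465, plus strand) encodes a hydrolase-like protein that is abundant in embryonic mesoderm. It was at 17.8 TPM in replicate 1 (16.5 to 19.2 TPM, 667 reads) and 17.1 TPM in replicate 2 (15.0 to 19.5 TPM, 226 reads), and the libraries differed by less than the counting intervals. Mesenchymal genes were much lower in the same libraries. Col3a1, a fibrillar collagen, was at 1.06 and 1.40 TPM, the mesodermal transcription factor gene Twist1 at 0.905 and 1.29 TPM, Col1a2 at 0.254 and 0.457 TPM, and the growth factor receptor gene Pdgfra at 0.147 and 0.806 TPM. The summed level of these 4 genes was below that of Mest alone in each replicate. Levels of different genes do not show which cells the Mest reads came from, and this was not tested.

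Copg2 encodes a subunit of the COPI vesicle coat and is transcribed towards Mest, with which it overlaps tail to tail. Copg2 was at 16.0 and 14.1 TPM, so that the ratio of Mest to Copg2 was 1.11 in replicate 1 (0.9995 to 1.23) and 1.22 in replicate 2 (1.01 to 1.47). The 2 genes shared 912 exonic bases, which are 23.1% of the exons of Mest, and reads from these bases could not be assigned by strand. Of the 50-base stretches of the longest Mest transcript, 33.0% also occurred in Copg2, on either strand. Beyond these 2 genes, the centrosomal gene Cep41 was at 10.7 and 11.8 TPM and the carboxypeptidase gene Cpa1 was at 1.80 and 0.171 TPM. The maternally expressed Klf14 was listed at 0 in both libraries. Mest was the highest of the 5 genes named at its locus, but Copg2 was close to it.

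Mcts2 (chromosome 2, 152687035 to 152687946, plus strand) is an intronless copy of the X-linked gene Mcts1, inserted into an intron of H13, which encodes a signal peptide peptidase. Mcts1 acts with Denr in the re-initiation of translation. Mcts2 was at 51.7 TPM in replicate 1 (47.1 to 56.7 TPM, 451 reads) and 44.4 TPM in replicate 2 (37.2 to 52.5 TPM, 136 reads). Its mean was the highest of the group, but its replicate values overlapped those of Impact, and the rank of these genes turned with the longest transcript. Its host H13 had 95 reads (1.12 TPM) and 39 reads (1.31 TPM). Mcts2 thus exceeded the gene that surrounds it by 46.0-fold in replicate 1 (36.8 to 58.0) and by 33.8-fold in replicate 2 (23.5 to 49.6), or by 4.46 ± 0.240 on the log2(TPM + 1) scale (SD, n = 2). The 2 genes lie on the same strand and share no annotated exonic base, and reads of unspliced H13 within Mcts2 could not be separated. Downstream, Id1, an inhibitor of differentiation, was at 31.9 and 28.6 TPM, while Cox4i2, a subunit of cytochrome c oxidase, had 0 reads in replicate 1 and 1 read in replicate 2.

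Mcts2 has a start site of its own inside the H13 intron. The 137 bases before its annotated first base, which end at the GENCODE start and lie in the RefSeq promoter window, are given on the plus strand (GRCm38.p6, chr2:152686898-152687034). They were searched for TGCCGC and its reverse complement GCGGCA, the core sequence that the imprint-protecting protein Zfp57 binds when it is methylated, and the match is in capitals.
Mcts2: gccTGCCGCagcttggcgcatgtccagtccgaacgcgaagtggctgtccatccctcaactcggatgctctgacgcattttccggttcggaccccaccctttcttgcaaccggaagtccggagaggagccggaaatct
The stretch held 12 CpGs and 1 match. A match is a description of the letters only, and binding was not measured.

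The parent copy Mcts1 was at 33.9 TPM in replicate 1 and 35.4 TPM in replicate 2, close to the retrogene. The ratio of Mcts2 to Mcts1 was 1.52 in replicate 1 (1.34 to 1.73) and 1.25 in replicate 2 (0.997 to 1.57), and the direction reversed when the longest transcript was taken as the length of each gene, with -0.52 in place of 0.46 on the log2(TPM + 1) scale. Whether reads of 1 copy could be counted for the other was examined from the transcript sequences of GENCODE M21. The open reading frames are both 546 bases long and differ at 81 positions (85.2% identity), with a longest identical run of 29 bases. No 50-base word of the Mcts2 transcript occurred in a Mcts1 transcript, and 0.695% of its words occurred in another gene, Gm8328. The 120 bases of the reading frame with the most differences (bases 367 to 486, of which 25 differ) are shown with the differing bases in capitals.
Mcts2: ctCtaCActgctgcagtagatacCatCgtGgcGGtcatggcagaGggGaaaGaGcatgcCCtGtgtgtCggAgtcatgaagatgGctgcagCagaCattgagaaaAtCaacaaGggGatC
Mcts1: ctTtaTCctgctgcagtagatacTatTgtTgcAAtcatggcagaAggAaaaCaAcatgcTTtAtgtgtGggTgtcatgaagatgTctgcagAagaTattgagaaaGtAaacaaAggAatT
A read of 50 or more bases placed anywhere in Mcts2 therefore differs from Mcts1 at 1 or more positions. The partner Denr was at 101 and 98.9 TPM, above both copies, and Eif2d, a related re-initiation factor, was at 6.48 and 6.81 TPM.

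Zdbf2 (chromosome 1, 63273265 to 63314576, plus strand) encodes a zinc finger protein and is unusual in that an early transcript from a distant upstream start sets its later expression. RefSeq lists 2 starts for it, 72.9 kb apart. Zdbf2 had the largest ratio between the replicates in the group. It was at 0.532 TPM in replicate 1 (0.410 to 0.679 TPM, 64 reads) and 1.42 TPM in replicate 2 (1.08 to 1.82 TPM, 60 reads), a ratio of 2.67 (1.84 to 3.85). Its mean of 0.975 ± 0.626 TPM (SD, n = 2) therefore describes neither library. Summed markers were also higher in replicate 2 for mesenchyme (2.37 and 3.95 TPM) and neural cells (6.41 and 7.05 TPM). The sums for coelomic epithelium and gonad (3.91 and 3.99 TPM) and PGCs (7253 and 7378 TPM) were slightly higher as well. Those for red blood cells (3537 and 3331 TPM), endothelium (12.9 and 11.0 TPM) and gut endoderm (164 and 142 TPM) were lower. The part of any cell type in the Zdbf2 difference was not tested. Around Zdbf2, the elongation factor gene Eef1b2 was at 570 and 602 TPM, Fastkd2, which acts in mitochondrial RNA metabolism, was at 14.0 and 7.74 TPM, and the chromatin remodelling gene Ino80d was at 2.90 and 2.82 TPM. The lower value of Fastkd2 in replicate 2 was opposite in direction to that of Zdbf2.

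Sgce (chromosome 6, 4674350 to 4747207, minus strand) encodes epsilon-sarcoglycan, a membrane glycoprotein, and had the lowest mean of the group with summed exons but not with the longest transcript. It was at 0.595 TPM in replicate 1 (0.454 to 0.766 TPM, 60 reads) and 0.310 TPM in replicate 2 (0.155 to 0.555 TPM, 11 reads). Counting intervals of the replicates overlapped. Of its partners in the sarcoglycan and dystroglycan complex, 3 of 8 were in the table. Dag1, which encodes dystroglycan, was at 15.6 and 12.9 TPM and reached 1 TPM in both libraries, whereas Sgcb was at 1.48 TPM and 0 and the dystrophin gene Dmd at 0.725 and 0.189 TPM. Around Sgce, 9 genes in the table were examined, and 6 of them reached 1 TPM in both libraries. The highest of the 9 were Bet1, a vesicle transport gene, at 73.0 and 83.4 TPM and Pon3, a paraoxonase gene, at 7.49 and 6.19 TPM. The lowest were Pdk4 at 0.120 and 0.682 TPM and Tfpi2, which was listed at 0 in both. The nearest of the 9, Casd1, was at 2.79 and 2.30 TPM, above Sgce in each replicate. Peg10, the partner of Sgce at this locus, was not analysed, and genes related to it were low in at least 1 replicate. Of 12 such genes, derived from retrotransposon Gag sequences, 6 were in the table and none reached 1 TPM in both replicates. Ldoc1 had 25 reads (1.80 TPM) in replicate 1 and 0 in replicate 2, and Rtl8c had 6 (1.57 TPM) and 0. Rtl6 was at 1.24 TPM in replicate 1 and 0.135 TPM in replicate 2. Rtl4 and Rtl8a were listed at 0 in both.

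Impact (chromosome 18, 12955852 to 12992950, plus strand) encodes a protein that binds Gcn1 and thereby restrains the amino acid sensor kinase Gcn2. It was at 50.7 TPM in replicate 1 (48.7 to 52.7 TPM, 2481 reads) and 31.5 TPM in replicate 2 (29.0 to 34.3 TPM, 543 reads). The ratio of replicate 2 to replicate 1 was 0.622 (0.566 to 0.683). With summed exons, Impact was thus level with Mcts2 in replicate 1 and below it in replicate 2. With the longest transcript, Impact had a higher mean (56.3 TPM) than Mcts2 (48.3 TPM). Its neighbour Osbpl1a, an oxysterol-binding protein gene, was at 7.54 and 7.0 TPM, and the ratio of Impact to Osbpl1a was 6.72 in replicate 1 (6.13 to 7.39) and 4.51 in replicate 2 (3.81 to 5.37). Ttc39c was at 3.04 and 2.01 TPM and Zfp521 at 5.11 and 3.21 TPM. Impact was therefore the highest of the 4 genes examined at its locus in both replicates.

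The genes through which Impact acts covered a wide range of levels. Gcn1 (listed as Gcn1l1) was at 0.278 and 0.302 TPM, and Eif2ak4, which encodes Gcn2, was at 0.875 and 2.41 TPM. Both lay below Impact by more than 10 times in each library. The other kinases of the same substrate were at 16.2 and 13.6 TPM for Eif2ak1, 1.65 and 2.11 TPM for Eif2ak2 and 1.48 and 2.73 TPM for Eif2ak3. Their substrate gene Eif2s1 was at 122 and 104 TPM. The downstream transcription factor genes Atf4 and Ddit3 were at 26.1 and 19.8 TPM and at 20.6 and 24.8 TPM. In all, 6 of 8 genes of the pathway reached 1 TPM in both replicates, compared with 60.0% of all genes in the table.

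**Figure D3:**
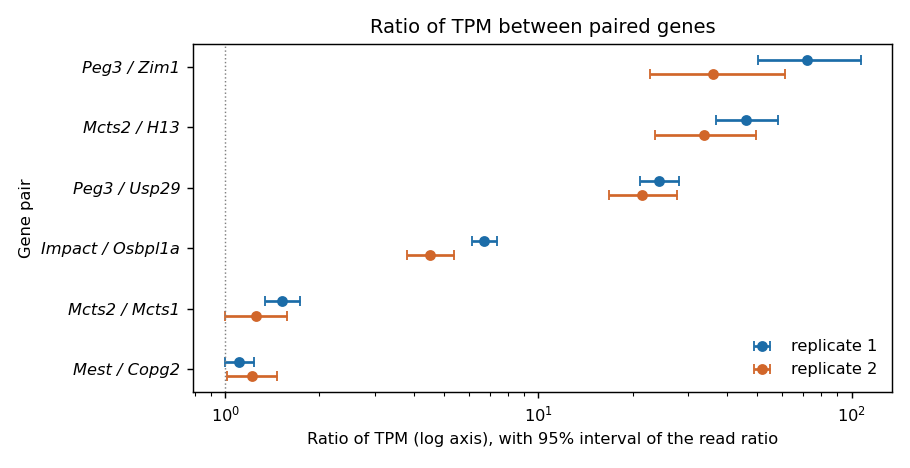
Ratio of TPM between the first and the second gene of 6 pairs, on a log axis, with 1 point per replicate and bars for the 95% interval of the ratio of reads; the dotted line marks equal levels. With summed exons, as plotted, Peg3 to Zim1, Mcts2 to H13 and Peg3 to Usp29 exceed 20 in both replicates, while Mcts2 to Mcts1 and Mest to Copg2 stay below 2; with the longest transcript Peg3 to Usp29 is 15.5 and 13.7 and Mcts2 to H13 is 27.1 and 19.9.

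The difference between the replicates was compared over the whole group. No member differed more than 2-fold on the log2(TPM + 1) scale, and 10.2% of all genes did. For the low gene Zdbf2 this scale understates the difference, which was 1.26 with a pseudocount of 0.1. The difference (replicate 2 minus replicate 1) was -0.67 for Impact, -0.28 for Sgce, -0.22 for Mcts2, -0.21 for Peg3, -0.05 for Mest and -0.02 for Usp29. It was 0.66 for Zdbf2 and 0.26 for Zim1. The 95% interval of the read ratio excluded equal TPM for 3 of 8 members (Impact, Peg3 and Zdbf2), compared with 39.0% of 17282 genes with reads. A share of 3 in 8 is near that background. Peg3 entered this count at a ratio of 0.857 (0.80 to 0.918) on 3559 and 1073 reads, whereas Sgce, at a ratio of 0.521 (0.247 to 1.0007) on 60 and 11 reads, did not. Such differences describe these libraries and no condition.

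**Figure D4:**
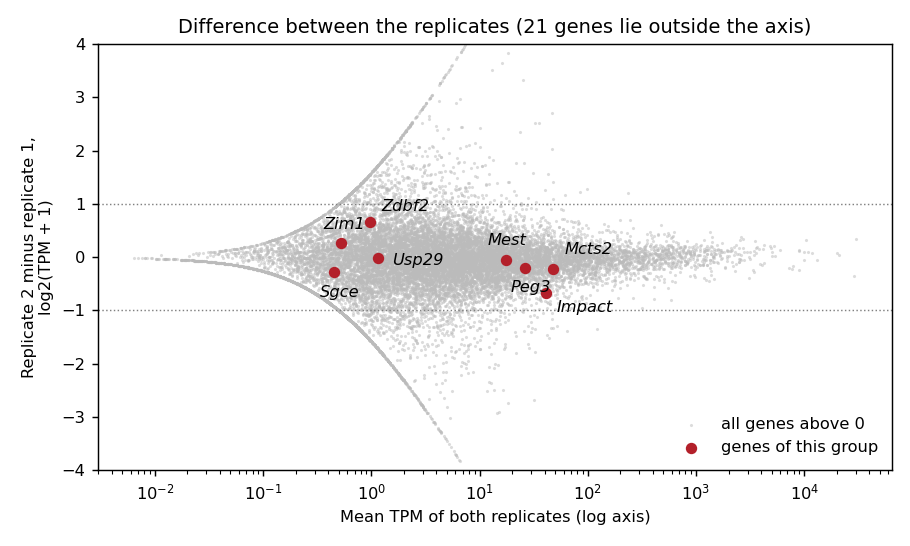
Difference between the replicates (replicate 2 minus replicate 1, log2(TPM + 1)) against the mean TPM of both on a log axis, for all genes above 0 (grey) and the 8 genes of the group (red); the dotted lines mark a 2-fold difference. The 8 genes lie between -0.67 and 0.66, inside the dotted lines.

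Other imprinted genes gave a scale for these levels. Of all genes in the table, 60.0% reached 1 TPM in both replicates, which is the share to set beside the counts below. Of 23 further paternally expressed genes, 18 were in the table and 14 reached 1 TPM in both replicates, with a median of 2.14 and 2.28 on the log2(TPM + 1) scale. They ranged from Snurf at 127 and 118 TPM and Snrpn at 55.8 and 50.2 TPM down to Airn (24 reads and 0) and Dio3 (1 read and 0). The table held 24 of 35 maternally expressed genes, and 17 reached 1 TPM in both, with a median of 2.50 and 2.30. The placental growth regulator Phlda2, at 1229 and 1176 TPM, and Commd1, at 63.4 and 57.6 TPM, led them, and Klf14, Tfpi2 and Dcn were listed at 0 in both. Of the factors that keep or remove imprints, 10 of 12 reached 1 TPM in both replicates. Dppa3, which protects the maternal genome from demethylation in the zygote, was highest at 5013 and 5075 TPM, followed by Trim28 at 68.6 and 61.1 TPM. Tet2 was at 0.437 and 0.496 TPM. Zfp57 was lowest, with 6 reads in replicate 1 and 1 read in replicate 2, while Zfp445, the other zinc finger protein known to protect imprints, was at 11.5 and 7.31 TPM.

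RefSeq promoter windows, from 250 bases before to 50 bases after a start, were matched for 6 of the 8 members and gave 9 windows. All 9 windows held more CpGs than the median of 7 over 32851 windows of the same length. The counts ran from 8 in the upstream window of Mest and 13 in that of Peg3 to 25 in that of Mcts2 and 38 in the downstream window of Zdbf2. TGCCGC or its reverse complement GCGGCA occurred in 5 of the 9 windows, compared with 11.6% of all windows and 21.0% of those above the median CpG count, since the motif itself holds a CpG. The windows with a match were those of Mcts2 and Zim1, 2 windows of Mest that overlap almost fully and hold the same matches, and the upstream window of Zdbf2. The windows of Peg3 and Usp29, which also overlap each other, had none. Windows with a match held 15 to 25 CpGs, so the share above a median of 7 is not matched to them in CpG count.

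The genes whose level in both libraries lay nearest to each member were found by the distance on the log2(TPM + 1) scale over 2 libraries. They were Taf7 and Vcp-rs for Mcts2, Iqschfp and Tex10 for Impact, Atad2 and Cdkn3 for Peg3, Nmi and Ctla2a for Mest, Gm43681 and Rab11fip1 for Usp29, Msx3 and Tmem219 for Zdbf2, Cox15 and Pcdhgb1 for Zim1, and Gm10602 and Gm48840 for Sgce. All distances were at most 0.0837. With 2 libraries such likeness is a likeness of level alone.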

How the data were processed

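RNA-seq of 2 replicates of E9.5 PGCs was analysed. The authors deposited TPM per gene symbol. Per their methods, reads were aligned to mm10 with Hisat2 and counted with featureCounts. The submitters' processing notes also name Bowtie2, RSEM and R 3.4.2. The tool that gave TPM, the annotation and the strand setting are not given in the sources used here, and the methods and the labels name different library kits.

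Symbols were matched to GENCODE M21 (GRCm38, the assembly of mm10), where 18748 had 1 gene identifier. Reads were recovered from TPM and summed exon length. Among low-count genes, 96.7% (replicate 1) and 95.8% (replicate 2) lay within 0.02 of a whole read. For Mcts2 and Impact the nearest length with whole reads in both libraries was used (917 and 5148 bases in place of 912 and 5129). None was found for Osbpl1a, whose reads are approximate. Recovery and intervals were tested on simulated data that held counting error only, so the test does not cover other variation between libraries.

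A pseudocount of 1 was used, which understates differences between low genes. Ratio intervals are Clopper-Pearson intervals on shares of reads. Named genes were the members, the genes of 10 locus pairs (6 with both rows), the 2 genes nearest in level, and list genes (all of a list of 8 or fewer, otherwise the 2 highest and 2 lowest). Zfp445, Ddx3y and Rtl6 were added after values were seen, and markers are given mostly as sums. Members and lists were chosen with earlier results of these data known. Python 3.11.15, numpy 2.4.6, pandas 2.3.3, scipy 1.17.1, Biopython 1.88 and matplotlib 3.10.9 were used.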

Additional observations from a re-analysis of the deposited data

How the results depend on the processing

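Depth limits the 4 lower genes, which rest on 11 to 199 reads per library, and with 2 libraries no call by a test was possible. With 2 libraries, leaving out either one gives the value of the other, so that it always moves a mean by less than 1 SD and says nothing of stability. Zdbf2 was at 0.532 TPM without replicate 2 and 1.42 TPM without replicate 1. At thresholds of 0.5 and 5 TPM, 6 and 4 members were detected in both replicates. A pseudocount of 0.1 gave log2 ratios of 4.39 for Peg3 to Usp29, 5.41 for Peg3 to Zim1 and 5.19 for Mcts2 to H13, and a group median of 2.30. That median was 4.21 without Zim1 and 4.76 for members at a mean TPM of at least 1, because it lies in the gap between the upper and lower genes. With the longest transcript in place of the summed exons, the log2 ratios were 3.45 for Peg3 to Usp29, 4.72 for Peg3 to Zim1, 4.0 for Mcts2 to H13, 0.39 for Mest to Copg2 and 1.86 for Impact to Osbpl1a, and that of Mcts2 to Mcts1 reversed to -0.52. Only the lengths change in this alternative, and levels are not rescaled to a common sum. No level can fall under it, so its levels and its count of detected members are not comparable with the main ones. The same change was applied to levels and to plain TPM ratios after seeing the data. It gave 56.3 TPM for Impact, 40.0 for Peg3, 25.8 for Mest, 2.74 for Usp29 and 1.09 for Sgce, and left the count of detected members at 5. It placed Impact above Mcts2, and Sgce above Zdbf2 and Zim1. Median-ratio scaling of the libraries left all 8 levels within 1 SD. The rank of a member among all genes moved by more than the replicate spread for 6 of 8 members among protein-coding genes alone, and for 6 of 8 once genes with a mean below 0.1 TPM were left out.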
